A study of Homo sapiens with 6 samples.

Results

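The mRNA decay machinery was examined as the genes that the deposited annotation places in the pathway "RNA degradation", without the glycolytic enzymes and the helicase families (gene symbols starting with ENO, PFK, DDX or DHX) that share this term. Of 79 genes with the term, 9 were left out by name, and the remaining 70 genes, of 20030 in the table, were followed. The 6 libraries were mRNA sequencing of cells labelled as NCI-H929, an established human multiple myeloma cell line. The 3 IGF2BP1-KD libraries came from cells carrying a lentiviral short hairpin RNA against IGF2BP1, which encodes a reader of N6-methyladenosine (m6A), and the 3 IGF2BP1-NC libraries from cells with a negative control. The knockdown hairpin vector carried a puromycin resistance gene, the selection of the negative control cells is not given in the sources used here, and the labels name no separate cultures or clones, so the p-values measure only the spread between these libraries. The comparison asks which genes of the decay machinery had another mRNA level when IGF2BP1 was knocked down.

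Most mRNAs are degraded after their poly(A) tail has been shortened, by the PAN2-PAN3 complex, by the CCR4-NOT complex with its recruiting BTG and TOB proteins, or by PARN. The mRNA then loses its cap to DCP2 and its activators, among them the cytoplasmic LSM ring, and is digested from the 5′ end by XRN1, or it is digested from the 3′ end by the exosome, a ring of EXOSC subunits that acts through the nucleases DIS3, DIS3L and EXOSC10. IGF2BP proteins are known for binding m6A-marked mRNAs, preferentially in a UGGAC context, and for shielding many of them from this machinery.

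The targeted gene was lower in every IGF2BP1-KD library. Levels are given in FPKM (fragments per kilobase of transcript and per 1000000 mapped reads, a level per length). IGF2BP1 stood at 48.1, 43.7 and 49.1 FPKM in IGF2BP1-NC libraries 1 to 3 and at 13.5, 12.9 and 12.8 FPKM in IGF2BP1-KD libraries 1 to 3. Its counts fell by 1.85 ± 0.065 (SE) on the log2 scale (n = 3 per group, edgeR, Benjamini-Hochberg adjusted p = 4.8e-08). Library totals lay between 16885449 and 18112179 counts, at which a count of 0 allows up to 3 counts, or 0.166 to 0.178 counts per 1000000 (CPM), for counting error only. The labelled cell type was checked against its markers. Of 14 plasma cell markers, 7 had at most 3 counts in every library, among them TNFRSF17, IRF4 and CD38, and 3 were above 1 CPM in every library, whereas all 14 erythroid markers were above 1 CPM in every library. The summed plasma cell markers lay between 77.3 and 162 CPM in the IGF2BP1-NC and between 81.5 and 87.2 CPM in the IGF2BP1-KD libraries, and the summed erythroid markers between 8836 and 10529 and between 9594 and 10472 CPM. Most plasma cell marker counts were those of XBP1, at 2689, 1365 and 1292 counts in IGF2BP1-NC and 1282, 1282 and 1181 counts in IGF2BP1-KD, so the highest sum was set by IGF2BP1-NC library 1. SLAMF7 had 4, 5 and 4 counts in IGF2BP1-NC and 52, 42 and 181 counts in IGF2BP1-KD. The libraries are therefore called by their labels and not by a cell type, and the part of this in the results was not tested.

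Short sequences were read from the study's hairpin design and from the reference to show what the hairpins and the reader protein could recognise in these genes. The study lists 2 hairpin targets in IGF2BP1, both on the plus strand of GRCh38 in coding exons (exons 13 and 4 of 15, at chr17:49045893-49045913 and chr17:49026496-49026516), and the labels do not say which of them the libraries carry. The capitals mark bases 14 to 20 of each target, which pair with the seed of the hairpin's guide strand.
shRNA target 1: cagggaagaatctATGGCAAa
shRNA target 2: acagtagagaactGTGAGCAa
Neither target occurred whole in any of the 857 annotated transcripts of the decay genes. The capital letters of target 1 occurred in the 3′ UTR of 7 of 65 tested decay genes (10.8%), against 12.2% of 11810 tested genes with a coding sequence. Those of target 2 occurred in 6 of 65 (9.23%) against 11.6%. The 3′ UTR was taken as all bases after the coding sequence, and genes without any were not taken out. Among the 9 genes that passed the test of expression, DCPS and LSM8 held the first of these sites and PARN the second.

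The letters TGGAC, the DNA spelling of the UGGAC context, were searched on the coding strand of each gene's representative transcript in GENCODE release 44. Only the coding sequence was searched, and the untranslated regions were left out. They occurred 171 times in the coding sequences of the 65 tested decay genes, or 1.57 times per kilobase, and in 56 of these genes (86.2%), while all 11810 tested genes with a coding sequence held 1.70 per kilobase and 84.3% held at least 1. PAN2 had 13 such coding sites, PARN 5, PATL1 and XRN1 4 each, DIS3L 3, EXOSC8 and DCPS 1 each, and CNOT10 and LSM8 none. For LSM8, only 291 of the 12384 bases of the transcript are coding. Windows of 25 bases, with the letters in capitals, are shown for a pair of genes that were higher in IGF2BP1-KD (PAN2 and DIS3L) and a pair that were lower (PARN and EXOSC8). Each holds the site nearest the stop codon among those whose window lay within a single exon and did not run past the coding sequence.
PAN2, chr12:56318267-56318291, minus strand, exon 25 of 26: ggcagaaagaTGGACtggaaggtgc
DIS3L, chr15:66320617-66320641, plus strand, exon 9 of 17: tgtatccaaaTGGACattttgtgcg
PARN, chr16:14482718-14482742, minus strand, exon 22 of 24: caaaagaaagTGGACtgaagatagc
EXOSC8, chr13:37005956-37005980, plus strand, exon 6 of 11: gattccggtcTGGACctcctggaga
A match describes letters only. The 5 higher genes held 1.66 sites per kilobase of coding sequence, the 4 lower genes 1.17 and the 56 others 1.58, and no m6A or binding data were analysed here.

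Of the 70 decay genes, 65 passed the filter on low counts. BTG4, PABPC1L2A, PABPC1L2B and PABPC5 had 0 counts in every library, and PNLDC1 had at most 4. Past an adjusted p of 0.05 (edgeR, over 11994 genes), 5 decay genes were higher in IGF2BP1-KD (7.69%, against 13.7% of all tested genes) and 4 were lower (6.15%, against 14.5%). PAN2, DIS3L, XRN1, PATL1 and LSM8 rose, and CNOT10, EXOSC8, DCPS and PARN fell. Together these were 13.8% of the tested decay genes, against 28.2% of all tested genes. An unadjusted edgeR p under 0.05 was reached by 18 of the 65 decay genes and by 4897 of the 11994 tested genes, those past the adjusted threshold included. The IGF2BP1-KD and IGF2BP1-NC libraries did not overlap in CPM for 22 of the 65 (33.8%, against 45.9% of all tested genes), 11 higher and 11 lower.

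**Figure D1:**
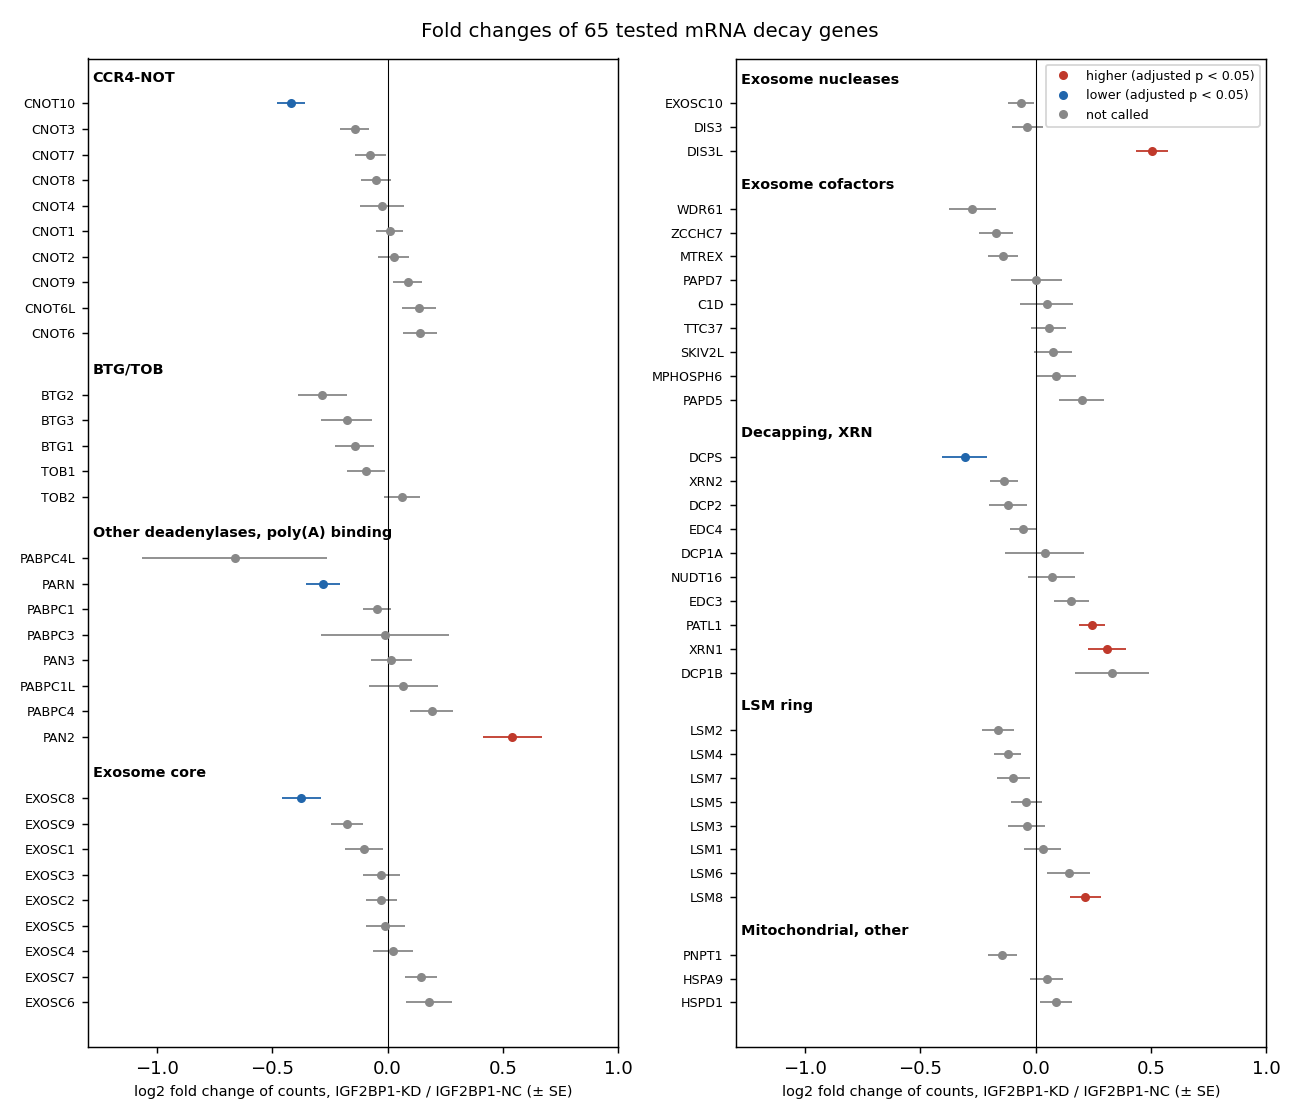
Log2 fold change of counts in IGF2BP1-KD over IGF2BP1-NC for the 65 tested decay genes, by class, with bars of 1 standard error (n = 3 libraries per group). The 5 red genes were higher and the 4 blue genes lower at an adjusted p under 0.05, and most grey points lie near the line at 0.

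The changes of the decay genes were small. The median log2 fold change was -0.01 over the 65 genes and -0.0048 over all tested genes, with quartiles of -0.12 and 0.09 against -0.19 and 0.19. Without regard to sign, the median change was 0.10 for the decay genes and 0.19 for all tested genes on the log2 scale. A log2 change within 0.2 of 0 was estimated for 52 decay genes (80.0%) and for 51.7% of all tested genes. The decay genes were also more highly counted and more precisely measured, with a median of 6.18 against 5.13 log2 CPM and a median standard error of 0.077 against 0.096, and the part of this in the smaller changes was not tested. Only PABPC4L, a poly(A)-binding protein gene at 10 to 29 counts per library, had an estimate past 1.5-fold in either direction (1.54% of the decay genes, against 14.1% of all tested genes). Its log2 change of -0.66 had a 95% interval from -1.55 to 0.22, and it did not pass the test. No decay gene passed both the test and a 1.5-fold change, which 10.1% of all tested genes did.

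**Figure D2:**
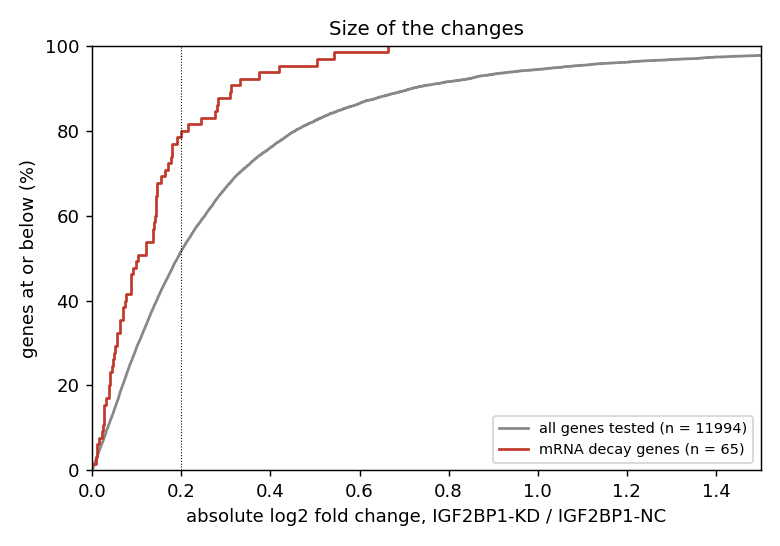
Share of genes (%) whose absolute log2 fold change, IGF2BP1-KD over IGF2BP1-NC, lies at or below the value on the x axis, for the 65 decay genes and all 11994 tested genes. At the dotted line, a log2 change of 0.2, the decay genes stand at 80.0% and all genes at 51.7%.

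The CCR4-NOT complex joins a scaffold (CNOT1), structural subunits and 2 kinds of deadenylase, CNOT6 or CNOT6L and CNOT7 or CNOT8. Of its 10 measured genes, 1 fell, none rose and 9 did not pass (10% passed, against 28.2% of all tested genes). CNOT10 (chr3:32685145-32773875, plus strand) encodes a subunit that docks on the N-terminal part of CNOT1. It stood at 47.8, 46.4 and 43.8 FPKM in IGF2BP1-NC and at 33.1, 36.7 and 34.2 FPKM in IGF2BP1-KD. Every IGF2BP1-KD library lay below every IGF2BP1-NC library, and the log2 change was -0.42 ± 0.063 (SE, n = 3 per group, edgeR adjusted p = 0.000825). CNOT10 passed in all 16 alternative settings, each library left out included. Its exons overlap those of CNOT10-AS1 on the other strand and of the pseudogene SUGT1P2 on its own, and their reads cannot be told apart here.

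The scaffold did not pass. CNOT1, the most highly expressed gene of the complex, was at 56.4, 51.4 and 56.0 FPKM in IGF2BP1-NC and at 55.6, 53.5 and 56.9 FPKM in IGF2BP1-KD, with overlapping groups and a log2 change of 0.01 (95% interval -0.12 to 0.14). The sign of so small a value depended on the setting. The FPKM of CNOT10 divided by that of CNOT1 was 0.844 ± 0.0608 in IGF2BP1-NC and 0.627 ± 0.0504 in IGF2BP1-KD (SD, n = 3), without overlap between the groups. This ratio and those given further on were chosen after the values had been seen and carry no test. Ratios were also taken of EXOSC8 to EXOSC9, CNOT8 to CNOT7, CNOT6 to CNOT6L and DCP1A to DCP1B. In each of these, the groups overlapped.

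None of the 4 deadenylase genes of the complex passed. CNOT6 and CNOT6L, which encode nucleases of the same family, each had a log2 change of 0.14, with 95% intervals from -0.02 to 0.30 and from -0.03 to 0.30. CNOT7 and CNOT8, a second pair of paralogs, had log2 changes of -0.07 (95% interval -0.22 to 0.07) and -0.05 (-0.20 to 0.10). In level, CNOT8 was at 19.9 to 22.5 FPKM over the 6 libraries, CNOT6 at 10.7 to 13.1, CNOT7 at 8.84 to 10.1 and CNOT6L at 4.52 to 5.63. Per length, CNOT8 stood above the other deadenylase genes of the complex and CNOT6L below them in every library, and CNOT6 stood above CNOT7 in every library. In CPM, CNOT7 was the highest of the 4 in every library, at 102 to 117, and CNOT6L again the lowest. The remaining subunit genes had log2 changes between -0.14 (CNOT3) and 0.09 (CNOT9).

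BTG and TOB proteins bring CCR4-NOT to mRNAs and slow cell growth. Over all tested genes, 28.2% passed and 6081 of 11994 estimates were negative. None of the 5 tested BTG and TOB genes passed, and 4 of their 5 estimates were negative. BTG2, the most highly expressed of them, was at 18.5, 20.1 and 24.7 FPKM in IGF2BP1-NC and at 17.04, 16.9 and 18.5 FPKM in IGF2BP1-KD, a log2 change of -0.28 (95% interval -0.52 to -0.05, edgeR adjusted p = 0.0714) with groups that just overlapped. BTG4 was not detected, as above.

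The deadenylases outside CCR4-NOT moved in opposite directions. PAN2 (chr12:56316223-56334053, minus strand), the nuclease of the PAN2-PAN3 complex, was at 11.2, 8.002 and 7.69 FPKM in IGF2BP1-NC and at 12.4, 14.0 and 13.04 FPKM in IGF2BP1-KD. The groups did not overlap, although IGF2BP1-NC library 1 stood apart from the other two and close to the IGF2BP1-KD libraries. The log2 change was 0.54 ± 0.128 (SE, n = 3 per group, edgeR adjusted p = 0.0135), 0.72 without that library, and 0.47 without IGF2BP1-NC library 2, where the adjusted p was 0.0565. PAN3, its adaptor subunit, was at 2.89 to 3.42 FPKM over the 6 libraries with a log2 change of 0.02 (95% interval -0.18 to 0.21). The FPKM of PAN2 divided by that of PAN3 was 2.91 ± 0.661 in IGF2BP1-NC and 4.198 ± 0.575 in IGF2BP1-KD (SD, n = 3), and the groups overlapped. PAN2 shares exon positions with CNPY2-AS1 on the other strand.

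PARN (chr16:14435700-14632728, minus strand), a poly(A)-specific nuclease that also matures small noncoding RNAs, fell. It was at 15.7, 14.1 and 13.8 FPKM in IGF2BP1-NC and at 11.2, 12.9 and 12.0 FPKM in IGF2BP1-KD, without overlap. The log2 change was -0.28 ± 0.075 (SE, n = 3 per group, edgeR adjusted p = 0.0170), and the call was lost without IGF2BP1-KD library 1 (adjusted p = 0.0822).

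The poly(A)-binding proteins coat the tail that these enzymes remove. PABPC1, the most highly expressed decay gene, was at 722 to 790 FPKM over the 6 libraries, with a log2 change of -0.05 (95% interval -0.18 to 0.09). PABPC4 was at 122, 153 and 152 FPKM in IGF2BP1-NC and at 159, 164 and 170 FPKM in IGF2BP1-KD, without overlap, and its log2 change of 0.19 (95% interval -0.01 to 0.39) did not pass (edgeR adjusted p = 0.144). PABPC3, an intronless relative of PABPC1 at 0.499 to 0.685 FPKM, shares sequence with it, and its counts are uncertain.

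The exosome core consists of 9 EXOSC subunits, and 1 of the 9 genes fell (11.1%, against 28.2% of all tested genes in either direction) while none rose. EXOSC8 (chr13:36998816-37025881, plus strand), one of the ring subunits related to RNase PH, was at 42.1, 34.9 and 35.2 FPKM in IGF2BP1-NC and at 29.0, 30.8 and 27.3 FPKM in IGF2BP1-KD. The groups did not overlap, with IGF2BP1-NC library 1 above the rest, and the log2 change was -0.37 ± 0.085 (SE, n = 3 per group, edgeR adjusted p = 0.00784). EXOSC8 passed in all 16 alternative settings, and its exons overlap those of SUPT20H on the other strand. EXOSC9, another ring subunit and the highest of the core by mean FPKM, was at 46.4, 47.9 and 48.6 FPKM in IGF2BP1-NC and at 39.8, 42.9 and 44.9 FPKM in IGF2BP1-KD. Its groups did not overlap either, but the log2 change of -0.18 (95% interval -0.33 to -0.03) did not pass (edgeR adjusted p = 0.0749). The other 7 core genes had log2 changes between -0.10 (EXOSC1) and 0.18 (EXOSC6). Levels within the core ran from 7.23 FPKM for EXOSC1 to 45.1 FPKM for EXOSC9 as means of the 6 libraries, although the assembled ring holds 1 copy of each subunit.

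Of the 3 exosome nuclease genes, 1 rose (33.3%, against 28.2% of all tested genes in either direction). DIS3L (chr15:66293217-66333898, plus strand), which encodes the cytoplasmic relative of DIS3, was at 5.58, 5.49 and 5.29 FPKM in IGF2BP1-NC and at 7.59, 7.81 and 7.99 FPKM in IGF2BP1-KD. All IGF2BP1-KD libraries lay well above all IGF2BP1-NC libraries. DIS3L rose by 0.50 ± 0.070 on the log2 scale (SE, n = 3 per group, edgeR adjusted p = 0.000566), and it passed in all 16 alternative settings. DIS3L-AS1 overlaps its exons on the other strand.

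DIS3, the mainly nuclear paralog, was at 10.1 to 11.2 FPKM over the 6 libraries, with overlapping groups and a log2 change of -0.04 (95% interval -0.19 to 0.11). EXOSC10, a nuclear nuclease and the most highly expressed of the 3, was at 65.9 to 71.8 FPKM with a log2 change of -0.06 (95% interval -0.19 to 0.06). The FPKM of DIS3L divided by that of DIS3 was 0.497 ± 0.0201 in IGF2BP1-NC and 0.724 ± 0.0261 in IGF2BP1-KD (SD, n = 3), without overlap. DIS3L stayed the lower expressed paralog in every library.

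**Figure D3:**
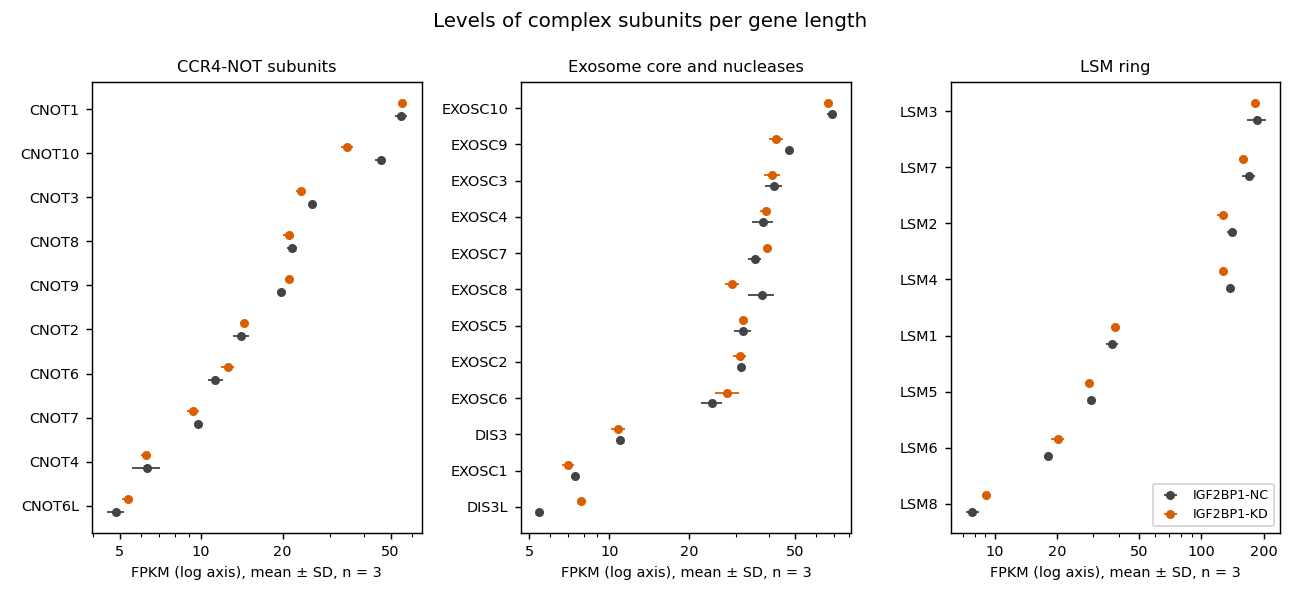
Level in FPKM (log axis) of the CCR4-NOT genes, the exosome core and nuclease genes, and the LSM genes, as mean and SD of 3 libraries per group (grey IGF2BP1-NC, orange IGF2BP1-KD). Apart from CNOT10, EXOSC8, DIS3L and LSM8, the genes in these panels did not pass the test, and the spread between subunits is far wider than the spread between groups.

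None of the 9 genes for exosome cofactors passed, against 28.2% of all tested genes. The cofactors are the TRAMP and SKI components and the nuclear partners that feed RNA to the exosome. The log2 changes of the 9 genes lay between -0.28 (WDR61) and 0.20 (PAPD5). WDR61, a subunit of the SKI complex, was at 21.6, 27.3 and 27.4 FPKM in IGF2BP1-NC and at 19.9, 22.5 and 21.2 FPKM in IGF2BP1-KD (edgeR adjusted p = 0.0658), with IGF2BP1-NC library 1 inside the range of the IGF2BP1-KD libraries. MTREX, the helicase of TRAMP and the highest of the class, was at 40.2 to 49.5 FPKM over the 6 libraries, and PAPD5, a noncanonical poly(A) polymerase and the lowest, at 2.15 to 2.68 FPKM.

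In decapping and 5′ to 3′ decay, 2 of 10 genes rose and 1 fell, a share (30.0%) near the 28.2% of all tested genes. Leaving out a library gave 1 to 3 higher genes, with 1 without IGF2BP1-KD library 2 or 3 or IGF2BP1-NC library 2 or 3, and 0 lower genes without any library other than IGF2BP1-NC library 3. XRN1 (chr3:142306607-142448062, minus strand), the cytoplasmic 5′ to 3′ exonuclease, was at 6.16, 5.16 and 5.31 FPKM in IGF2BP1-NC and at 6.33, 7.09 and 7.36 FPKM in IGF2BP1-KD. The groups did not overlap, but the highest IGF2BP1-NC library lay close to the lowest IGF2BP1-KD library. The log2 change was 0.31 ± 0.082 (SE, n = 3 per group, edgeR adjusted p = 0.0163). The call was lost without any 1 of IGF2BP1-KD libraries 2 and 3 and IGF2BP1-NC libraries 2 and 3, with adjusted p from 0.0511 to 0.0716. XRN2, its nuclear paralog, was at 25.7, 24.8 and 26.2 FPKM in IGF2BP1-NC and at 24.2, 22.9 and 23.2 FPKM in IGF2BP1-KD, without overlap, and its log2 change of -0.14 (95% interval -0.27 to -0.003) did not pass (edgeR adjusted p = 0.115). The FPKM of XRN1 divided by that of XRN2 was 0.217 ± 0.0203 in IGF2BP1-NC and 0.296 ± 0.0303 in IGF2BP1-KD (SD, n = 3), without overlap.

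PATL1 (chr11:59636716-59669037, minus strand), a scaffold that links deadenylated mRNA to the decapping enzymes, also rose. It was at 24.8, 23.6 and 23.9 FPKM in IGF2BP1-NC and at 28.4, 28.6 and 29.3 FPKM in IGF2BP1-KD, well separated and tight in both groups. PATL1 rose by 0.24 ± 0.057 on the log2 scale (SE, n = 3 per group, edgeR adjusted p = 0.00906), and it passed in all 16 alternative settings. An unnamed transcript on the other strand overlaps its exons.

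DCPS (chr11:126304060-126350005, plus strand) encodes the scavenger enzyme that hydrolyses the cap left after 3′ to 5′ decay, and it fell. Its level was 6.54, 6.07 and 5.76 FPKM in IGF2BP1-NC and 5.30, 5.35 and 4.29 FPKM in IGF2BP1-KD, without overlap and with IGF2BP1-KD library 3 lowest. The log2 change was -0.31 ± 0.099 (SE, n = 3 per group, edgeR adjusted p = 0.0382). This call was the least stable of the 9, since it was lost without any 1 library except IGF2BP1-NC library 3, with adjusted p from 0.0554 to 0.129. TIRAP-AS1 overlaps its exons on the other strand.

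The decapping enzymes themselves did not pass. DCP2, the main decapping enzyme, was at 10.3 to 13.6 FPKM with a log2 change of -0.12 (95% interval -0.30 to 0.06), and NUDT16, a second enzyme with decapping activity, at 2.80 to 3.69 FPKM with a log2 change of 0.07 (-0.16 to 0.29). EDC4, the enhancer of decapping with the highest level in the class, was at 33.7 to 36.7 FPKM with a log2 change of -0.06. DCP1A, a DCP2 cofactor, was at 9.92, 5.79 and 7.12 FPKM in IGF2BP1-NC and at 7.94, 8.08 and 7.57 FPKM in IGF2BP1-KD. The IGF2BP1-NC libraries of DCP1A spread on both sides of the IGF2BP1-KD libraries, and its 95% interval ran from -0.36 to 0.44. Its paralog DCP1B, the lowest of the class, was at 1.38, 1.44 and 1.19 FPKM in IGF2BP1-NC and at 1.71, 1.56 and 1.81 FPKM in IGF2BP1-KD, without overlap, and did not pass (log2 change 0.33, 95% interval -0.02 to 0.69, edgeR adjusted p = 0.145).

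**Figure D4:**
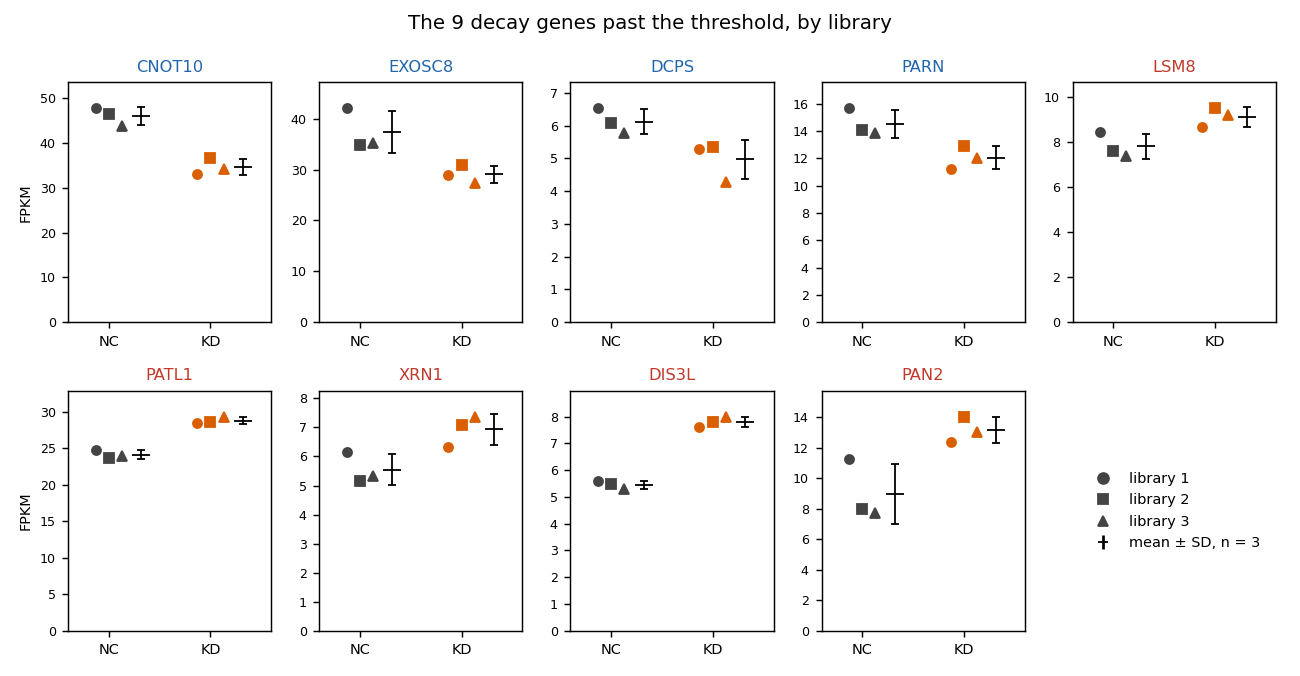
FPKM by library for the 9 decay genes past an adjusted p of 0.05, ordered by log2 change from CNOT10 to PAN2 (grey NC, IGF2BP1-NC; orange KD, IGF2BP1-KD; black, mean and SD, n = 3; each panel has its own axis from 0). No panel has overlapping groups, and library 1 is the highest of the 3 NC libraries in all 9 panels.

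The LSM proteins form a ring of 7 in which LSM1 marks the cytoplasmic form that activates decapping and LSM8 the nuclear form that binds the U6 small nuclear RNA, with LSM2 to LSM7 in both. LSM8 (chr7:118184144-118204035, plus strand) was the 1 gene of the 8 that rose, and none fell (12.5% passed, against 28.2% of all tested genes). It was at 8.46, 7.61 and 7.37 FPKM in IGF2BP1-NC and at 8.67, 9.52 and 9.20 FPKM in IGF2BP1-KD. The groups did not overlap, with IGF2BP1-NC library 1 just under IGF2BP1-KD library 1. LSM8 rose by 0.21 ± 0.067 on the log2 scale (SE, n = 3 per group, edgeR adjusted p = 0.0344). The call was lost without any 1 of IGF2BP1-KD libraries 2 and 3 and IGF2BP1-NC libraries 2 and 3, with adjusted p from 0.0820 to 0.143. LSM1 was at 34.3, 39.4 and 37.6 FPKM in IGF2BP1-NC and at 37.5, 38.6 and 38.5 FPKM in IGF2BP1-KD, with overlapping groups and a log2 change of 0.03 (95% interval -0.14 to 0.20). The FPKM of LSM8 divided by that of LSM1 was 0.212 ± 0.0303 in IGF2BP1-NC and 0.239 ± 0.0078 in IGF2BP1-KD (SD, n = 3), and the groups overlapped. This ratio is per length, and LSM8 had more counts than LSM1 in every library.

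The shared ring genes LSM2 to LSM7 had log2 changes of -0.16, -0.04, -0.12, -0.04, 0.14 and -0.10 in that order, and none passed. Their levels fell into separate ranges. LSM3, at 164 to 202 FPKM over the 6 libraries, and LSM7, at 154 to 178 FPKM, overlapped, as did LSM2, at 120 to 148 FPKM, and LSM4, at 124 to 143 FPKM. LSM5, at 27.6 to 30.4 FPKM, and LSM6, at 17.6 to 21.4 FPKM, lay below these and below LSM1 in every library. LSM8 was the lowest of the 8 by FPKM in every library. FPKM divides by length, and the representative transcript of LSM8 has 12384 bases, of which 291 are coding. In CPM, LSM8 was at 92.3 to 119 over the 6 libraries. This was above LSM1 (39.8 to 45.8), LSM5 (69.6 to 76.6) and LSM6 (21.5 to 26.1) in every library.

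The last class held the mitochondrial genes. PNPT1, the mitochondrial polynucleotide phosphorylase, was at 19.7, 20.4 and 19.4 FPKM in IGF2BP1-NC and at 17.99, 18.7 and 17.5 FPKM in IGF2BP1-KD, without overlap, but did not pass (log2 change -0.15, edgeR adjusted p = 0.108). The chaperones HSPD1, at 302 to 359 FPKM, and HSPA9, at 230 to 283 FPKM, had log2 changes of 0.09 and 0.05.

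Summed over a class, FPKM gives most weight to the highest genes. The CCR4-NOT genes summed to 214 ± 4.94 FPKM in IGF2BP1-NC and 203 ± 2.04 FPKM in IGF2BP1-KD (SD, n = 3), without overlap, while CNOT10 alone went from 46.0 ± 2.06 to 34.7 ± 1.81 FPKM. The BTG and TOB genes summed to 58.6 ± 1.64 and 52.8 ± 1.29 FPKM and the last class to 601 ± 12.1 and 633 ± 10.1 FPKM, also without overlap. The exosome core, at 295 ± 9.34 and 288 ± 4.72 FPKM, and the LSM genes, at 725 ± 44.5 and 692 ± 15.2 FPKM, overlapped between the groups, as did the other 4 classes. In bulk RNA, a lower level in each cell and fewer cells at the higher level cannot be told apart. Over the 65 tested genes, IGF2BP1-NC library 1 held the highest CPM of the 6 libraries for 17 genes and the lowest for 13. Each other library held the highest for 5 to 14 genes and the lowest for 4 to 16, the 16 in IGF2BP1-KD library 3. Without IGF2BP1-NC library 1, 6 decay genes were higher and 8 lower, 21.5% of those tested against 32.8% of all genes tested then. DCP1A joined the higher genes, BTG2, EXOSC9, LSM2, LSM7 and WDR61 joined the lower genes, and DCPS left them.

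Further genes linked to mRNA decay, stability or silencing, outside the pathway term, were taken from 5 lists. Of these, 76 genes were tested and 17 passed (22.4%, against 28.2% of all tested genes), 5 higher and 12 lower. In nonsense-mediated decay, 1 of 20 rose and 2 fell (15% together). RBM8A, a subunit of the exon junction complex, had a log2 change of 0.22 (edgeR adjusted p = 0.0354). UPF3B, which links that complex to UPF1, had one of -0.37 (edgeR adjusted p = 0.00453). The RBM8A call was lost without any 1 IGF2BP1-KD library or IGF2BP1-NC library 2 (adjusted p from 0.0654 to 0.127), and leaving out a library gave 0 to 2 higher and 1 to 3 lower genes in this list. Factors that bind AU-rich or other elements in 3′ UTRs had 2 higher and 6 lower of 23 (34.8%). HNRNPD, an AU-rich element binding protein, fell by 0.60 on the log2 scale, from 291, 327 and 334 FPKM in IGF2BP1-NC to 212, 220 and 200 FPKM in IGF2BP1-KD (edgeR adjusted p = 0.000249), and PUM2, a Pumilio repressor, rose by 0.23 (adjusted p = 0.0152). PUM2 lost the call without IGF2BP1-KD library 2 (adjusted p = 0.0648) or IGF2BP1-NC library 2 (0.0546), and leaving out a library gave 0 to 3 higher and 4 to 8 lower genes, the 0 without IGF2BP1-NC library 2 and the 8 without IGF2BP1-NC library 1. The other genes that passed in this list, given here after their values were seen, were RC3H2, which was higher, and CELF1, CELF2, ELAVL1, SAMD4A and ZFP36L1, which were lower.

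In microRNA silencing, 1 of 13 rose and 1 fell (15.4% together, against 28.2% of all tested genes). These were the Argonaute genes AGO4 (log2 change 0.28, edgeR adjusted p = 0.0245) and AGO1 (-0.45, adjusted p = 0.000902). AGO4 lost the call without any 1 library except IGF2BP1-NC library 1 (adjusted p from 0.0657 to 0.0897), and leaving out a library gave 0 to 2 higher genes and 1 lower gene in this list. Of 9 genes for the adaptors that bring nuclear RNA to the exosome, 2 fell (22.2%) and none rose. ZFC3H1 was at -0.32 (edgeR adjusted p = 0.00631), and leaving out a library gave 1 to 3 lower genes. Of 12 genes of P-bodies and translational repression, 1 rose and 1 fell (16.7% together). They encode the stress granule proteins CAPRIN1 (0.21, edgeR adjusted p = 0.0170) and G3BP2 (-0.35, adjusted p = 0.00139). CAPRIN1 lost the call without IGF2BP1-KD library 1 (adjusted p = 0.0564) or 2 (0.0774), and leaving out a library gave 0 to 2 higher and 1 to 3 lower genes. In each of the 5 lists, the number of passing genes in both directions together was highest without IGF2BP1-NC library 1. The same held over all tested genes, of which 3991 (32.8%) passed without that library. Leaving out any other library gave 2290 to 2790.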

How the data were processed

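Libraries labelled as NCI-H929 cells, 3 IGF2BP1-KD and 3 IGF2BP1-NC, were grouped by their labels. For the counts per gene, which are whole numbers and not normalized, the authors used Trimmomatic for trimming, HISAT2 for mapping (GRCh38) and HTSeq for counting. FPKM values, which the authors deposited beside them and credit to Cufflinks, were used for levels, because they account for transcript length. Tool versions, the annotation release and the strand setting of the counting are not given in the sources used here, although the library kit was stranded, so it is unknown how reads shared by overlapping genes or close paralogs were assigned. Total counts per library lay between 16885449 and 18112179.

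Counts of all genes were tested with edgeR 4.0.16 under R 4.3.3, using filterByExpr, TMM factors and the two-sided quasi-likelihood test with robust dispersions, and p-values were adjusted by Benjamini-Hochberg over 11994 genes. The test was first run on simulated counts with the same dispersion for every gene and with changes of at least 1.5-fold. That run does not cover the smaller changes of the decay genes that passed. CPM is the count per 1000000 counts of the library. Alternatives were DESeq2 1.42.0, limma 3.58.1 with voom or on log2(FPKM + 1) and log2(FPKM + 0.1) for genes with a mean of at least 1 FPKM or without that filter, other scalings and filters, a replicate block, a 1.5-fold limit in addition, and each library left out.

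Sequence searches and tables used pandas 2.3.3 (Python 3.11.15), and plots used matplotlib 3.10.9. All 70 genes were matched to GENCODE release 44 on GRCh38, and 29 of them overlapped exons on the opposite strand and 11 on the same strand. Genes named are, per class, up to 4 passing genes in each direction, the highest and lowest by FPKM, all nucleases and decapping enzymes and the LSM genes, and per further list the passing gene with the smallest adjusted p in each direction. Other names were added after their values were seen. The members, classes and lists were chosen with earlier results of these data known.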

Additional observations from a re-analysis of the deposited data

How the results depend on the processing

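Among 704 log2 changes of 44 named genes under 16 alternatives, 649 kept their sign and their side of the threshold, 42 lost and 6 gained the call, and 7 changed sign, all of genes without a call. The log2 change of CNOT1 was -0.000489 without a filter on low counts. Over the 6 fits that left out a library, it ran from -0.0263 to 0.0362 for CNOT1, from -0.0639 to 0.0110 for DIS3, from -0.0335 to 0.0834 for LSM1, from -0.127 to 0.0354 for LSM3 and from -0.0274 to 0.194 for NUDT16. The cause was not tested.

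The 5 higher and 4 lower decay genes became 2 higher and 2 lower with limma on log2(FPKM + 1) without a filter, and 0 and 0 with a 1.5-fold limit in addition. Leaving out a library gave 2 to 6 higher genes (2 without IGF2BP1-NC library 2, and 3 without IGF2BP1-KD library 2 or 3 or IGF2BP1-NC library 3) and 2 to 8 lower genes (2 without IGF2BP1-KD library 1, 8 without IGF2BP1-NC library 1). Over all tested genes, the same fits gave 1144 to 1929 higher and 1146 to 2062 lower. With the replicate number as a block, 4 decay genes were higher and 6 lower, where LSM8 lost the call and BTG2 and WDR61 gained it. The libraries share only a number: across genes, the deviations of same-numbered libraries from their group means correlated at -0.052, 0.0363 and -0.106 (Pearson's r), and 1 of the 6 libraries correlated best with its own number. Other scalings moved the median log2 change of all tested genes to at most 0.0258.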
